A study of Sus scrofa with 36 samples.

Results

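The HSP70 and HSP110 family was followed in the thyroid gland of pigs slaughtered before or after days in a hot room. The family was taken as 10 listed genes, HSPA8, HSPH1, HSPA1A, HSPA1B, HSPA1L, HSPA2, HSPA4, HSPA4L, HSPA9 and HSPA14. A probe was a member when the scanner files gave it 1 of these gene names, or when its description held the name in round brackets. This found 14 probes of 8 genes, of 60305 probes and 12181 named genes on the array. HSPA1A and HSPA1B were not found under those names. The table of pig genes used here gives both as synonyms of HSP70.2, which had 2 probes on the array, and these are reported beside the members under that name.

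Total RNA of 1 thyroid gland per pig was hybridized to a 1-colour Agilent porcine array, 36 castrated males in all. The pigs were Creole (CR), Large White (LW) or the cross of these breeds (F1), 6 of each breed labelled 24 °C and 6 labelled 30 °C. The protocol gives the hot room as 32 °C for 5 days, whereas the labels say 30 °C, and the labels are used as group names. Slaughter came ahead of the exposure for the 24 °C groups and after it for the hot groups, so heat cannot be told apart from the later slaughter and the older age. The ages are not in the labels. The pigs came from sets of littermates, with few families per breed, and were kept in pens of 3, but litter, parents and pen are not in the labels. Breed and family therefore cannot be told apart, and the p-values treat littermates as independent pigs.

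HSP70 proteins are chaperones that bind short exposed stretches of other proteins. With ATP they take up clients loosely, after hydrolysis to ADP they hold them tightly, and when ATP binds again they release them to fold. J-domain proteins bring them their clients and start the ATP hydrolysis, and nucleotide exchange factors, among them the larger HSP110 relatives, empty the nucleotide site so that the cycle can start again. Heat shock factor HSF1 drives the inducible members when proteins unfold, while the constitutive member HSPA8 is abundant in most cells. A gland that folds large amounts of secreted thyroglobulin relies on the related HSPA5 inside the endoplasmic reticulum.

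The array measured each gene through 60-base probes, and the probes of a gene are numbered here by mean signal, with the brightest first. Several of the results below turn on which probe was read, so the probes concerned are shown 5′ to 3′ as the scanner files list them. The second HSPA8 probe and an unnamed probe share 23 bases on opposite strands, in capitals.
HSPA8 (2): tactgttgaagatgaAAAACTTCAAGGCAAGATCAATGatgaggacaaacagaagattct
opposite strand: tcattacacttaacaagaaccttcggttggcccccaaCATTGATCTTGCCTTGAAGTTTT
The second HSPA2 probe and the HSP70.2 probes are shown because their values moved together from pig to pig, and no part is in capitals.
HSPA2 (2): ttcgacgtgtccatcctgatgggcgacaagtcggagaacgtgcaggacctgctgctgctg
HSP70.2 (1): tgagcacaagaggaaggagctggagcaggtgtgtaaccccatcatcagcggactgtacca
HSP70.2 (2): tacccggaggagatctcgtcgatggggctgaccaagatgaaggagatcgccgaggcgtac
The probe of HSPA9 is shown with the stop codons of the 3 reading frames in capitals.
HSPA9 (1): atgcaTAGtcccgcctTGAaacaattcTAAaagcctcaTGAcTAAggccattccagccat

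In the HSPA9 probe, none of the 3 frames was open as listed (0 of 3), while 2 of 3 were open on the reverse complement. HSPA9 is the HSP70 of mitochondria, and this is its only probe under the rule, and whether its values read the messenger RNA was not tested. HSPH1 (2) had 0 open frames on either strand, and HSPA14 (1) and HSPH1 (1) had 1 as listed and 2 on the reverse complement, so open frames alone do not settle the strand. HSPA8 (1) had a copy of all its 60 bases in an unnamed probe and shared 53 with another, and HSPA2 (1) likewise had a copy of its 60 bases. No other member probe shared 18 or more bases with another probe of the array.

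Of the 14 member probes, 13 were tested, and each of these was well above background on 36 of 36 arrays, as were both HSP70.2 probes. The exception was HSPH1 (4), which passed that call on 4 of 18 arrays at each temperature and is not described further. On single arrays the share of probes above background ran from 72.8% to 80.3%. Array medians lay between 132.5 and 173 intensity units, and slides 1 to 4 held all 6 groups. The thyroid identity factors NKX2-1 and FOXE1 and the hormone genes TG, DUOX2, SLC5A5 and TSHR were well above background on 36 of 36 arrays. Of the parathyroid markers, CASR was so on 36 arrays and the hormone gene PTH on 16.

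Across breeds, no member probe was called for heat, against 1.18% of all 46222 tested probes (limma, adjusted p under 0.05 throughout). At the same threshold the paper reports HSP70 and HSP110 as differentially expressed in thyroid, with HSP70 lower after heat. Its text does not say which HSP70 gene this was in thyroid. The paper's model also held random terms for pen, slaughter day and parents, which could not be fitted here. Of the 13 tested member probes, 5 had an unadjusted p under 0.05, and 4 of these were lower at 30 °C. Over all tested probes 9.74% had such a p and 4.74% had it and were lower at 30 °C, but member probes of the same gene are not independent. The 4 were both HSPA8 probes, HSPH1 (1) and HSPA2 (1). Any sign counted, 10 of the 13 were lower at 30 °C, with a median change of -0.10 on the log2 scale, against 44.4% and a median of 0.0090 over all tested probes. Within a gland, fewer cells of a type and less RNA per cell cannot be told apart. On the same arrays 5 of 7 tested proliferation genes and 4 of 5 tested immediate early genes were called lower at 30 °C. The part of these shifts in the members' values was not tested. Members and lists were chosen with earlier results of these data known, so the counts in this paragraph are descriptions.

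HSPA8, the constitutive HSC70 that also strips clathrin from vesicles, had the smallest p of the family for heat. The log2 intensity of HSPA8 (1) ran in CR from 15.05 through a median of 15.32 to 15.45 at 24 °C, and from 14.46 through 15.07 to 15.40 at 30 °C. In F1 it ran from 15.26 through 15.40 to 15.71 at 24 °C and from 14.98 through 15.22 to 15.37 at 30 °C. In LW it ran from 15.17 through 15.26 to 15.59 at 24 °C and from 14.88 through 15.19 to 15.36 at 30 °C. The temperatures overlapped in each breed, and the lowest pigs of each breed were hot ones. Of the 18 hot pigs, 16 lay below the 24 °C mean of their breed. The mean went from 15.35 ± 0.17 (SD, n = 18) to 15.13 ± 0.24 (SD, n = 18), a difference of -0.22 (SE 0.07, 95% interval -0.35 to -0.09, limma adjusted p 0.113). The second probe gave 13.73 ± 0.20 and 13.49 ± 0.25 (SD, n = 18 each), a difference of -0.25 (SE 0.07, adjusted p 0.0939).

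Within CR, F1 and LW the differences of HSPA8 (1) were -0.27, -0.22 and -0.17, and those of HSPA8 (2) were -0.31, -0.29 and -0.13. Within slides 1 to 4, which held the 6 groups in unequal numbers, the difference of HSPA8 (1) ran from -0.43 to -0.15. Slide 5 held no breed at both temperatures. The copy of HSPA8 (1) gave -0.22 (SE 0.06, adjusted p 0.0759). The probe of the opposite strand gave 0.06 (SE 0.10) and followed HSPA8 (2) from pig to pig with r = 0.02 (36 pigs). HSPA8 (2) passed the threshold only when either of 2 hot pigs was left out, with adjusted p 0.0494 without LW 30 replicate 3 and 0.0446 without CR 30 replicate 4.

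**Figure D1:**
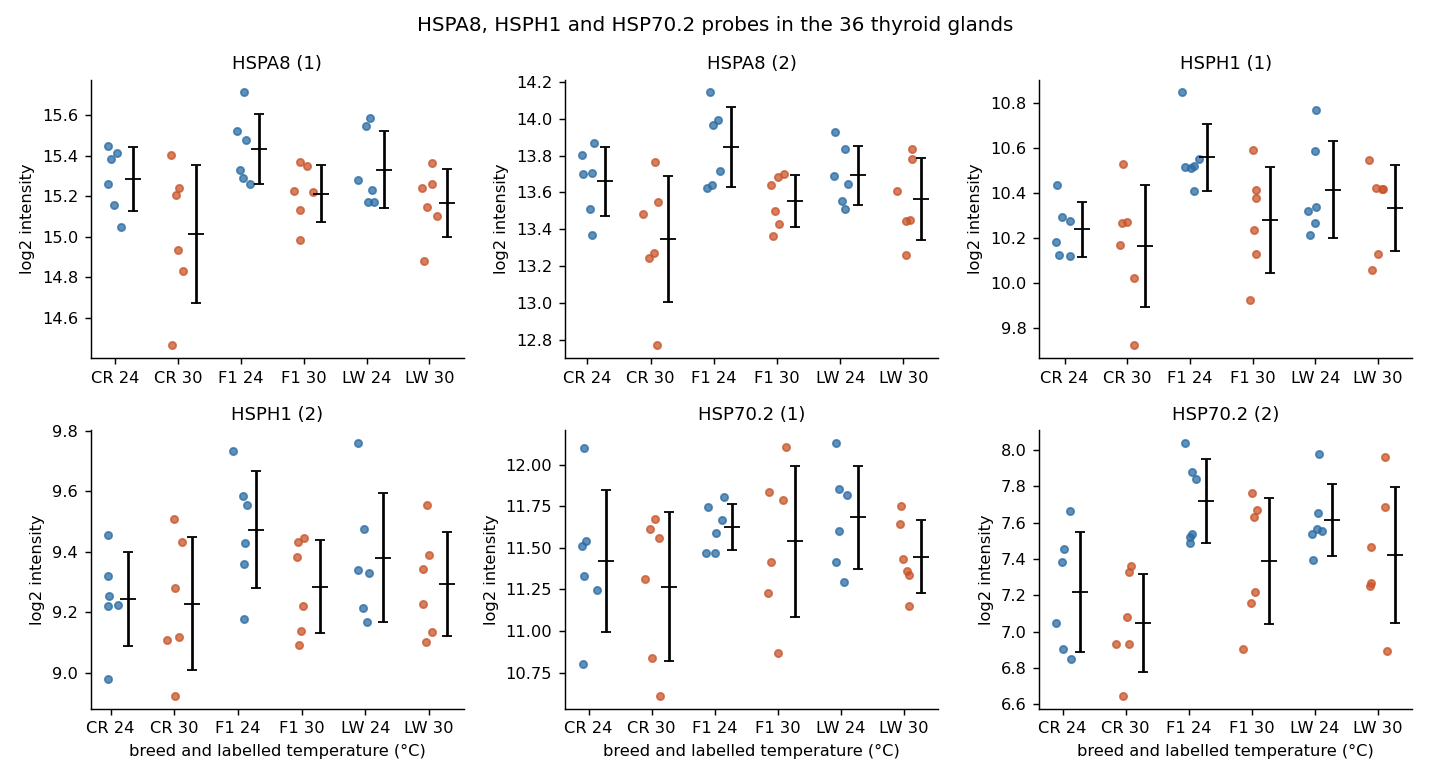
Log2 intensity of the HSPA8, HSPH1 and HSP70.2 probes named above each panel, with 1 point per pig, by breed and labelled temperature (blue 24 °C, orange 30 °C), and the mean ± SD of 6 pigs in black. HSPA8 (1) had a lower mean at 30 °C in each breed, and the ranges overlapped.

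HSP70.2, the pig gene that stands for the stress-inducible HSPA1A and HSPA1B, was not called for heat on either probe, and both had a lower mean in the hot pigs. HSP70.2 (1) ran from 10.80 through a median of 11.56 to 12.13 in the 24 °C pigs and from 10.61 through 11.43 to 12.11 in the hot pigs. The means were 11.58 ± 0.32 and 11.42 ± 0.38 (SD, n = 18 each), a difference of -0.16 (SE 0.11, 95% interval -0.38 to 0.07, limma adjusted p 0.717). HSP70.2 (2) differed by -0.23 (SE 0.09, adjusted p 0.365) and was below the 24 °C breed mean in 13 of 18 hot pigs. Both probes had negative differences within each breed, from -0.08 in F1 to -0.24 in LW for the first and from -0.17 in CR to -0.33 in F1 for the second.

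HSPH1, HSPA4 and HSPA4L are the HSP110 members, which act on HSP70 as nucleotide exchange factors and keep proteins from clumping. HSPH1 (1) ran from 10.12 through 10.37 to 10.85 in the 24 °C pigs and from 9.72 through 10.27 to 10.59 in the hot pigs. The difference was -0.15 (SE 0.07, 95% interval -0.28 to -0.01, limma adjusted p 0.459), and 10 of 18 hot pigs lay below the 24 °C mean of their breed. HSPH1 (2) and HSPH1 (3) differed by -0.10 and -0.05, so the probes of this gene shared a sign. Whether the sizes differed between probes was not tested. Within F1 the difference of HSPH1 (1) was -0.28, and within CR and LW it was -0.08 in each. HSPA4 differed by -0.10 (SE 0.11) and HSPA4L by -0.03 (SE 0.05).

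HSPA2 was lower in the hot pigs on both probes, and HSPA1L and the HSPA9 probe were higher, none of them called. HSPA2, best known from developing sperm cells, differed by -0.19 (SE 0.08, adjusted p 0.368) on its first probe and by -0.16 (SE 0.10, adjusted p 0.670) on its second. The gap of HSPA2 (1) was widest in F1, with means of 9.11 at 24 °C and 8.70 at 30 °C. In CR the means were 9.05 and 8.98, and in LW 8.67 and 8.57. HSPA1L, a relative of the inducible genes that is mainly expressed in testis, differed by 0.04 (SE 0.07). The HSPA9 probe went from 6.87 ± 0.13 to 6.98 ± 0.13 (SD, n = 18 each), a difference of 0.11 (SE 0.04, limma adjusted p 0.365), the only member with an unadjusted p under 0.05 that was higher in the hot pigs.

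HSPA14, the HSP70 that works at the ribosome with the J-domain protein DNAJC2, differed by 0.01 (SE 0.06) and -0.02 (SE 0.07) on its probes. Its breeds did not share a sign, and HSPA14 (2) differed by 0.22 in CR, -0.23 in F1 and -0.06 in LW. It was the only member probe with an unadjusted interaction p under 0.05 (0.0175, limma adjusted p 0.9999), which 4.67% of all tested probes had.

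**Figure D2:**
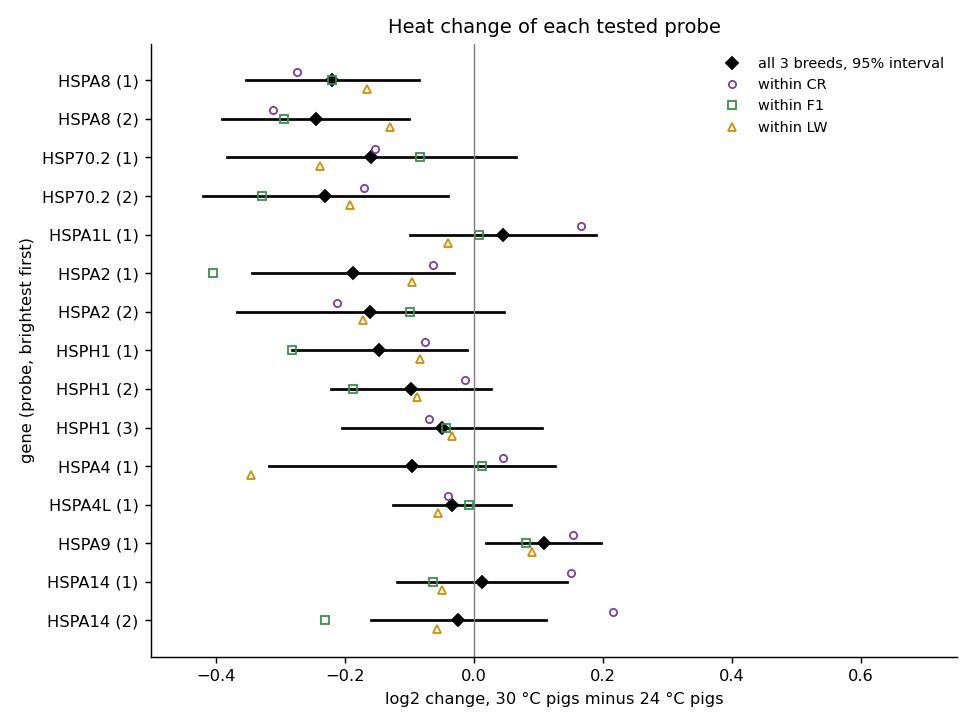
Log2 change of each tested probe, 30 °C pigs minus 24 °C pigs, over all breeds with its 95% interval (black) and within CR, F1 and LW (open symbols). The estimates over all breeds of HSPA8, HSP70.2, HSPA2, HSPH1, HSPA4 and HSPA4L lay below 0, and those of HSPA9 and HSPA1L above it. None was called, and several intervals crossed 0. HSPA14 (2) had 0.22 in CR and -0.23 in F1.

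Within single breeds, limma called 0 of the 13 member probes in CR (0.387% of all tested probes), 0 in F1 (0.383%) and 0 in LW (0%). At an unadjusted p under 0.05 the counts were 3, 4 and 0 of 13, against 5.75%, 10.6% and 4.01% of all tested probes. The test of whether the heat change differed between breeds called 0 member probes (0% of all tested probes), so no breed was shown to respond differently. For HSPA8 (1) the change in CR minus that in LW was -0.11, with a 95% interval from -0.44 to 0.23.

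More member probes were called between breeds than for heat. Between LW and CR, 3 of 13 member probes were called, all lower in LW, and 12.9% of all tested probes were called. The share of 3 in 13 is not far from that background. HSPA2 (1) ran from 8.78 through a median of 9.03 to 9.17 in CR, from 8.45 through 8.80 to 9.60 in F1 and from 8.21 through 8.62 to 8.99 in LW. None of the LW pigs reached the CR mean (0 of 12), although the ranges overlapped. The means were 9.01 ± 0.14 in CR and 8.62 ± 0.22 in LW (SD, n = 12 each), and the difference was -0.39 (SE 0.09, adjusted p 0.00421). It was -0.38 at 24 °C and -0.41 at 30 °C, and the copy of this probe gave -0.40 (SE 0.09, adjusted p 0.00295).

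HSPA2 (2) did not show this difference. It ran from 7.14 through 7.83 to 8.35 in CR and from 7.52 through 8.21 to 8.58 in LW, a difference of 0.28 (SE 0.12, limma adjusted p 0.150) with the opposite sign. The 95% intervals of the probes, -0.59 to -0.20 and 0.02 to 0.53, did not overlap, and the difference between the probes was not itself tested. The mean of both probes gave -0.06 (adjusted p 0.687), so the HSPA2 call rests on the sequence of the first probe and its copy.

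HSPA4 was lower in LW as well. It ran from 9.81 through 10.16 to 10.82 in CR and from 9.29 through 9.67 to 10.43 in LW, with means of 10.21 ± 0.27 and 9.75 ± 0.35 (SD, n = 12 each). The difference was -0.46 (SE 0.13, limma adjusted p 0.0195), and 2 of 12 LW pigs lay above the CR mean. It was -0.26 at 24 °C and -0.65 at 30 °C. HSPA4 in F1 ran from 9.20 to 10.58 and was not called against either breed. HSPA1L was the third, with 7.10 ± 0.25 in CR and 6.84 ± 0.18 in LW (SD, n = 12 each), a difference of -0.26 (SE 0.09, limma adjusted p 0.0384). This call was lost when any of 13 pigs was left out, with adjusted p from 0.0516 to 0.0727.

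HSP70.2 went the other way. HSP70.2 (2) ran from 6.65 through 7.06 to 7.66 in CR, from 6.90 through 7.58 to 8.04 in F1 and from 6.89 through 7.54 to 7.98 in LW. It was higher than in CR by 0.39 in LW (SE 0.11, limma adjusted p 0.0215) and by 0.42 in F1 (SE 0.11, limma adjusted p 0.0332), with 11 of 12 pigs of each above the CR mean. The F1 call was lost when any of 11 pigs was left out, with adjusted p up to 0.0662, while the LW call passed without any 1 pig. HSP70.2 (1) gave 0.22 and 0.24, neither called (limma adjusted p 0.312 and 0.372). In the assembly Sscrofa11.1 HSP70.2 lies at chr7:23925929-23927854, within the span of HSPA1L at chr7:23909960-23938678. Of these neighbours, HSP70.2 was called between LW and CR on its dimmer probe alone. The HSPA1L call of opposite sign was lost when any of 13 pigs was left out.

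Between F1 and CR, 1 of 13 member probes was called (3.38% of all tested probes). It was HSPA4L, with 6.33 to 6.81 and a median of 6.56 in CR, 6.49 to 6.97 and a median of 6.74 in F1, and 6.49 to 6.84 and a median of 6.65 in LW. F1 was higher than CR by 0.22 (SE 0.06, limma adjusted p 0.0180), 11 of 12 F1 pigs lay above the CR mean, and LW lay between with no call against either. Between F1 and LW, 0 of 13 member probes were called (1.99% of all tested probes), and 3 had an unadjusted p under 0.05, as did 13.4% of all tested probes. These were HSPA4 with 0.37, HSPA2 (1) with 0.29 and HSPA4L with 0.13, all higher in F1.

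Markers of other cells also differed between these breeds. Of 6 adipocyte markers 4 were called between LW and CR with a median of -0.57, and their mean log2 level ran from 10.06 to 11.41 in CR and from 9.72 to 10.75 in LW. Of 6 endothelial markers 4 were called with a median of 0.26, and their mean log2 level ran from 11.96 to 12.45 in CR and from 12.32 to 12.75 in LW. Their part in the breed differences of the members was not tested.

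**Figure D3:**
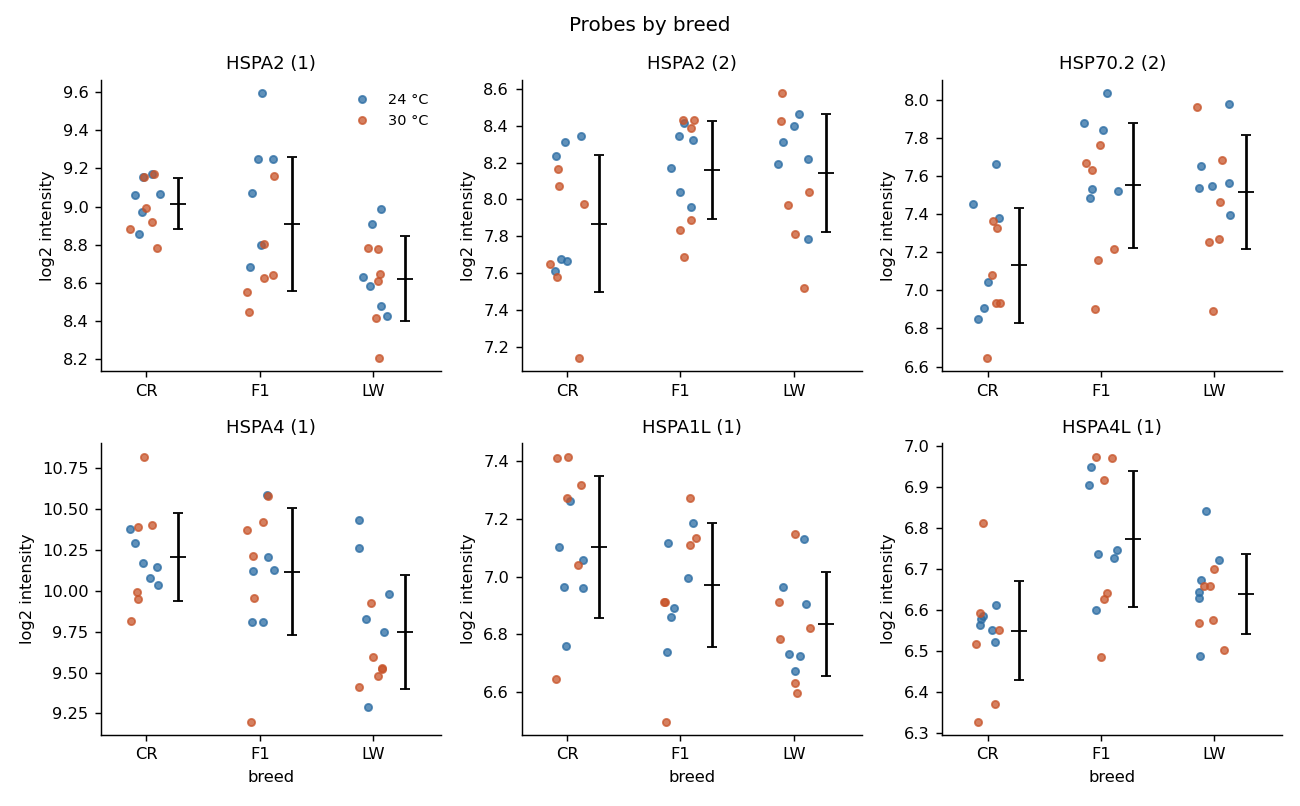
Log2 intensity of the probes named above each panel by breed, with 1 point per pig (blue 24 °C, orange 30 °C) and the mean ± SD of 12 pigs in black. HSPA2 (1), HSPA4 and HSPA1L were lower in LW than in CR, HSP70.2 (2) was higher in LW and F1 than in CR, HSPA4L was higher in F1 than in CR, and HSPA2 (2) had the opposite sign to HSPA2 (1) between LW and CR.

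From pig to pig, with group means removed, HSPA8 and HSPH1 varied together. Over 36 pigs the brightest probes of these genes gave Pearson r = 0.78 (within-group permutation p 1e-05, the smallest that 100000 permutations can give, adjusted p 0.00036) and Spearman rho = 0.69 (permutation p 4e-05, adjusted p 0.00144). Without the 2 pigs farthest from the HSPA8 median r was 0.69. It was 0.37, 0.94, 0.78 and 0.88 within slides 1 to 4, and 0.74 with slide means removed as well. Within CR, F1 and LW r was 0.78, 0.66 and 0.92, and within 24 °C and 30 °C it was 0.85 and 0.74. The tie was strongest for the brightest probes, and HSPA8 (1) gave r = 0.57 with HSPH1 (2) and 0.24 with HSPH1 (3).

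This was the only pair called of the 36 pairs of the 9 tested genes. Other pairs were weaker, such as HSPA4 with HSPA14 (r = 0.53, permutation p 0.014, adjusted p 0.245) and HSP70.2 with HSPA8 (r = 0.42, permutation p 0.026, adjusted p 0.311). HSPA1L with HSPA8 was negative (r = -0.39, permutation p 0.048, adjusted p 0.396). As a description, among 46161 probes the 3 most like HSPA8 (1) were its 2 overlapping probes and HSPA8 (2), and HSPH1 (1) came 4th. HSPA8 (1) followed the number of probes well above background with r = 0.25 and the array median with r = 0.03, and HSPH1 (1) gave -0.02 and -0.17. Of the gene lists compared, the mean level of the 4 heat shock factors gave the highest r with both probes. It was 0.33 with HSPA8 (1) and 0.49 with HSPH1 (1), each the highest of many values and given without a test. With HSP70.2 (1) and HSP70.2 (2) the same list gave 0.19 and 0.09. The part of the heat shock factors in the tie was not tested.

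HSPA2 (2) followed HSP70.2 and not the other HSPA2 probe. With group means removed it had r = 0.92 with HSP70.2 (2), r = 0.79 with HSP70.2 (1) and r = -0.09 with HSPA2 (1) over 36 pigs. Of the 46161 probes, HSP70.2 (2) was the one most like HSPA2 (2), and HSPA2 (2) was the one most like HSP70.2 (2). These share no run of 18 bases, and 60% of the bases of each are G or C. The 849 other probes with at least 60% G and C had a median r of 0.02 with HSPA2 (2). A median does not speak for single pairs, and whether the HSPA2 (2) and HSP70.2 probes read the same RNA was not tested. HSP70.2 (2) followed the array median with r = -0.43, the number of probes well above background with r = -0.31 and the mean level of the proliferation markers with r = -0.46, and their part in the r of 0.92 was not tested. By contrast HSPA2 (1) and its copy had r = 0.89, the HSPA8 probes r = 0.95, the HSP70.2 probes r = 0.74 and the HSPA14 probes r = 0.77. For HSPH1 the values were 0.73, 0.21 and 0.42. HSP70.2 (1) came only 6th among the probes most like HSP70.2 (2), behind HSPA2 (2), unnamed probes, CCT4 (0.75) and ZCCHC13 (0.75). An unnamed probe (0.86) was also closer to HSPA2 (2) than HSP70.2 (1) was.

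**Figure D4:**
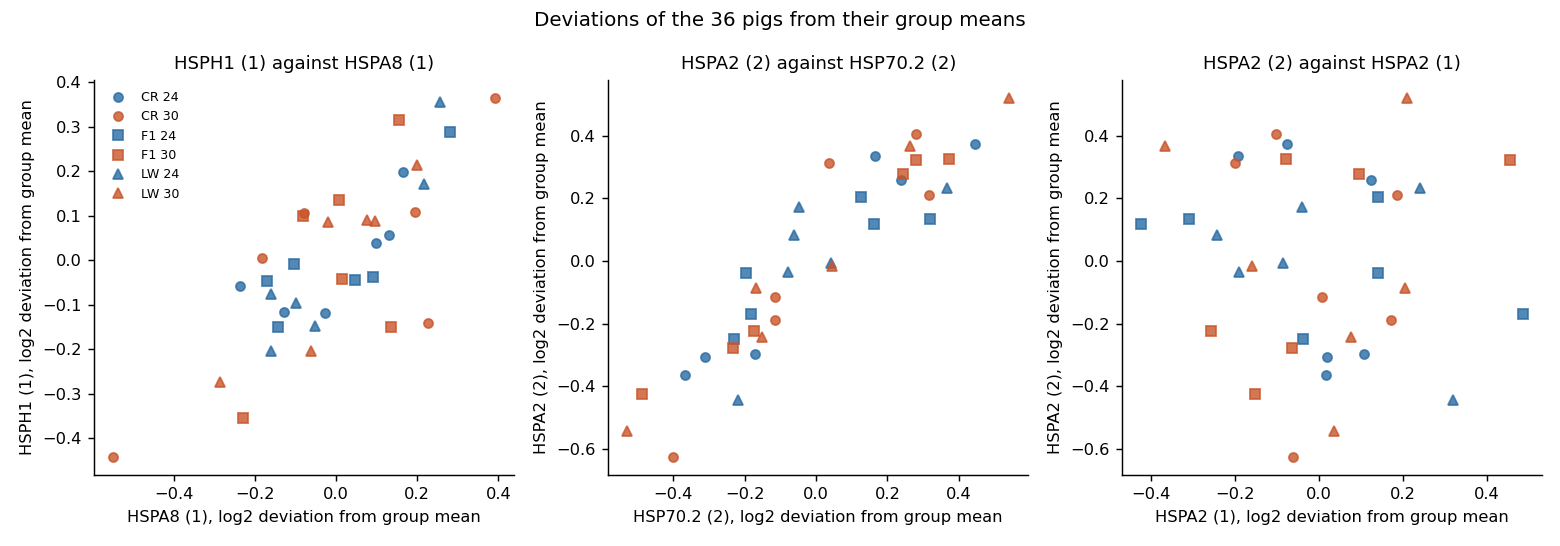
Log2 deviation of each of the 36 pigs from its group mean for HSPH1 (1) against HSPA8 (1), HSPA2 (2) against HSP70.2 (2), and HSPA2 (2) against HSPA2 (1), with symbols by breed and colours by temperature. The Pearson r were 0.78, 0.92 and -0.09.

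**Figure D5:**
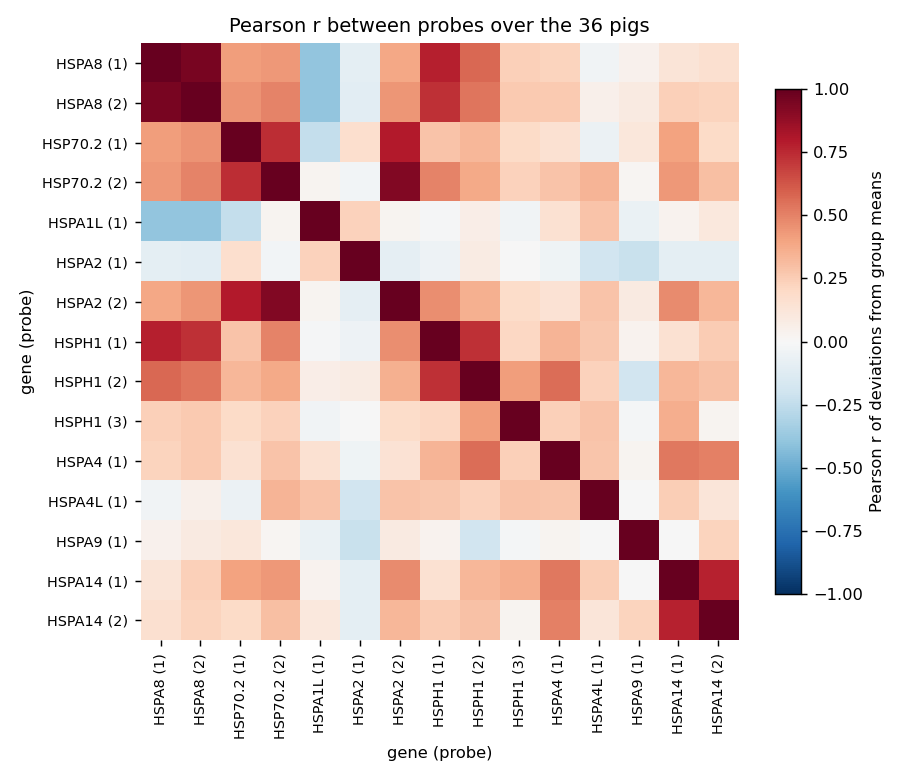
Pearson r between all tested member and HSP70.2 probes over the 36 pigs, on deviations from group means, from -1 (blue) to 1 (red). The HSPA8 probes with HSPH1 (1) and HSPH1 (2) had r from 0.53 to 0.95, and HSP70.2 with HSPA2 (2) from 0.74 to 0.92, while HSPA2 (1) and HSPA9 had no r above 0.23 in size.

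The named genes outside the family most like each member, by Pearson r over 36 pigs among 10684 genes, were as follows. Each gene was read on its brightest tested probe only, which for HSP70.2 was HSP70.2 (1). Other probes could rank higher, such as a PPP1CB probe with r = 0.70 to HSPA8 (1). HSPH1 was followed most by AMD1 (0.71), SEC23B (0.68) and PPID (0.67), the last a cyclophilin that binds HSP90. HSPA8 was followed by KCNJ5 (0.61), VPREB3 (0.61) and RBPMS (0.58), each less closely than HSPH1. HSP70.2 was followed by EIF1B (0.71), SRRM4 (0.70) and RSPH3 (0.68). HSPA4 was followed by METTL1 (0.77), MTFP1 (0.75) and PRMT5 (0.71), and HSPA4L by NUBP1 (0.75), DDX49 (0.74) and HDAC10 (0.69).

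HSPA14 was followed by LOC100522904 (0.83), NUP35 (0.79) and RSL24D1 (0.78), the last a ribosome assembly factor. HSPA1L was followed by NEU1 (0.67), SMARCA5 (0.67) and RANBP2 (0.63), HSPA2 by AHI1 (0.62), WDHD1 (0.62) and USP13 (0.62), and HSPA9 by DNAH2 (0.64), CDK20 (0.60) and EMC3 (0.59). These are the highest of many values and are given without a test.

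Among the partners of the cycle, 0 of 14 tested J-domain genes, 0 of 6 nucleotide exchange factors outside HSP110, 0 of 2 adaptors and 0 of 4 heat shock factors were called for heat with limma. The unadjusted p was under 0.05 for 0, 1, 0 and 0 of them. The median changes of these lists were 0.02, 0.02, 0.03 and 0.03. HSF1 itself differed by 0.02 (SE 0.04), and DNAJB1, the classical HSP40, by -0.02 (SE 0.06) with the same sign on its 5 probes. BAG3, an exchange factor that leads clients to autophagy, differed by -0.15 (SE 0.05, limma adjusted p 0.290). The adaptor STIP1 was not analysed here.

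Of 4 tested genes with the HSP70 fold outside the family, 1 was called for heat. HSPA5, the chaperone of the endoplasmic reticulum, fell from 15.76 ± 0.23 to 15.46 ± 0.25 (SD, n = 18 each), a change of -0.30 (SE 0.07, limma adjusted p 0.0234), and all 3 of its probes were called. HYOU1, the HSP110 relative in the same compartment, differed by -0.20 (SE 0.07, limma adjusted p 0.217).

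Between LW and CR, 2 of 14 tested J-domain genes were called, 1 higher and 1 lower in LW, against 12.9% of all tested probes. Of the exchange factors 1 of 6 was called, and these shares are not far from that background. Of the other genes with the HSP70 fold, 2 of 4 were called. DNAJA4, a cytosolic partner of HSP70, was higher by 0.39 (SE 0.08, limma adjusted p 0.00125), and DNAJC19, a part of the mitochondrial import motor, was lower by -0.15 (SE 0.04, limma adjusted p 0.0149). Between F1 and CR 2 of 14 J-domain genes were called, against 3.38% of all tested probes. They were DNAJA4 and DNAJC19 in the same directions, with 0.29 (limma adjusted p 0.0413) and -0.15 (limma adjusted p 0.0442). Of 3 DNAJA4 probes 2 were called between LW and CR and 1 between F1 and CR, and of 8 DNAJC19 probes 2 and 1, with the same sign on all of them. BAG3 was higher in LW than in CR by 0.27 (SE 0.07, limma adjusted p 0.00671), with 4 of its 6 probes called. DNAJB1 was not called on its brightest probe (-0.16, limma adjusted p 0.154), while 3 of its 5 probes were called and 3 of 5 shared that sign. HSPA5 and HYOU1 were lower in LW than in CR by -0.27 and -0.28 (limma adjusted p 0.0353 and 0.0224), with 2 of 3 and 1 of 3 probes called. No adaptor or heat shock factor was called between LW and CR (0 of 2 and 0 of 4, limma, with 0 and 0 at an unadjusted p under 0.05).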

How the data were processed

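Per the file headers, the scanner files hold unscaled pixel intensity per spot from Agilent Feature Extraction 10.10.1.1. The authors took median intensity without background subtraction, applied quantile normalization and deposited log2 values of 46097 probes. Here the same steps were rerun without control spots and 106 non-uniform spots. A probe was tested when its spot stood well above background on 5 or more arrays of any group of 6 (46222 probes), and the median difference to the deposited log2 values was 0.0056.

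Gene names came from the scanner files, updated with RefSeq (Sscrofa11.1), which also gave positions. The sequences are those of the scanner files. Tests used limma 3.58.1 in R 4.3.3 with Benjamini-Hochberg adjustment over all tested probes, with terms for breed and temperature, or 6 group means for changes within breeds. SE is from the model, SD over pigs. The authors' random terms for pen, slaughter day and parents could not be fitted. Of several probes of a gene, the brightest tested one stands for it. All members, the partners called and HSF1, BAG3, DNAJB1, STIP1 and HSPA5 are named. Pairs of genes were tested by 100000 two-sided permutations within groups. Arrays have no read depth, and their number limits the precision. The fits were tested on simulated data. Members and lists were chosen with earlier results of these data known. Other markers (C cells, muscle, thymocytes, erythroid, fibroblast, myeloid and B cells, with 1 call for heat among them, erythroid) are not described further. Alternatives were other scalings, filters, slide or position terms, array weights, gene means, reference names and leaving out each pig.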

Additional observations from a re-analysis of the deposited data

Results flagged for a closer look

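In 3 of 60 sets of 6 pigs, a pig lay far from the others by Dixon's ratio of its gap to the range, at the 95% critical value for 6 samples. Chance flags about 1 in 20 sets, which is 3 of 60. HSPH1 (1) in F1 24 replicate 6 was 10.85 against a median of 10.52 for the other 5 pigs (ratio 0.675). HSPA4 in LW 30 replicate 3 was 9.93 against a median of 9.52 (ratio 0.648), and HSPA9 in the same pig was 6.73 against 7.03 (ratio 0.739). No change differed between breeds by the interaction test.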

How the results depend on the processing

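No member probe was called for heat under any scaling, filter, slide, position, weight or model alternative, and leaving out 1 pig gave 0 to 1 calls. The heat difference of HSPA8 (1) stayed between -0.23 and -0.20 under these alternatives and between -0.24 and -0.18 without 1 pig. That of HSPA14 (1) is near 0 and turned sign, to -0.0057 as the mean of its probes and, without 1 pig, as low as -0.019, within a range of -0.019 to 0.053. With the names of the reference table the F1 against CR count was 2 and the LW against CR count was 4. The added call in both was HSP70.2 (2), which was lowest in CR. With position on the slide as a block the F1 against LW count was 1, HSPA2 (1) at 0.33 (adjusted p 0.0383), and without F1 30 replicate 4 it was also 1, HSPA4 (0.45, adjusted p 0.0496), over a range of 0 to 1 without 1 pig. The F1 against CR call of HSP70.2 (2) was lost with the processed signal (adjusted p 0.0536), with position as a block (0.0626) and when any of 11 pigs was left out. With group means kept, 2 pairs of genes were called, HSP70.2 with HSPA8 (r = 0.51) beside HSPA8 with HSPH1 (r = 0.80). In each case the cause was not tested. Each pig gave 1 array, and litter and pen are not in the labels, so no analysis paired or blocked by them was possible. The breed comparisons could not be run without the breed term. The number of arrays and signal over background limit what small differences can be seen.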
